A study of Homo sapiens with 6 samples.

Results

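The genes described here are 10 noncoding hosts of small nucleolar RNAs (snoRNAs): SNHG1, SNHG3, SNHG5, SNHG6, SNHG7, SNHG8, SNHG12, SNHG15, SNHG16 and GAS5. They were taken by symbol from a table of read counts with 26410 rows, all 10 have a row, and all 10 passed the filter on low counts among the 13014 genes tested. The counts come from RNA-seq of total RNA from Kasumi-1, an established human line of acute myeloblastic leukemia that carries the RUNX1::RUNX1T1 fusion. In 3 libraries (shPHF19) the cells carried a hairpin against PHF19, a Polycomb-like protein that helps recruit the histone methyltransferase complex PRC2. In the 3 control libraries the protocol names a scrambled hairpin, although the treatment label of these samples reads WT. Both hairpins were delivered by a lentiviral vector (GV493) that also carries GFP and puromycin resistance, and puromycin selection (2 µg/ml) began 48 h after transduction and lasted at least 24 h. The labels do not say how many hairpins against PHF19 were used, nor whether replicates came from separate transductions or cultures, and the p-values then cover only the spread among libraries, possibly a technical one.

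A snoRNA host gene is transcribed and spliced like other genes, and snoRNAs are released from its excised introns while the joined exons form the host RNA. Box C/D snoRNAs guide 2′-O-methylation and box H/ACA snoRNAs guide pseudouridylation, mainly of ribosomal RNA, each in a particle with a fixed set of core proteins. Many noncoding hosts begin with a pyrimidine tract like that of ribosomal protein mRNAs, and several of their spliced RNAs are degraded by nonsense-mediated decay when they are translated, so the level of a host RNA reflects both synthesis and decay.

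The libraries held 14663463 to 16615143 counts in shPHF19 cells and 14229878 to 15961787 in control cells. PHF19 itself had 41.1, 36.9 and 33.0 CPM (counts relative to library size, here scaled by the TMM method) in shPHF19 cells, against 168, 199 and 189 CPM in control cells, 5.00-fold lower (log2 fold change -2.32, SE 0.0975, edgeR adjusted p = 3.55e-25). All 7 markers listed for Kasumi-1 had counts, and their summed level was 13049 to 13817 CPM in shPHF19 cells and 8219 to 8542 CPM in control cells. Most of that sum is MPO (8394 CPM in shPHF19 cells and 4278 CPM in control cells), while RUNX1T1, the fusion partner, was called lower (146 CPM in shPHF19 cells and 188 CPM in control cells, log2 fold change -0.37, adjusted p = 0.000192) and KIT did not pass (0.16). CD34 (1.22), CD33 (1.04), MPO (0.97), RUNX1 (0.24) and SPI1 (0.21) were called higher. Of the 8 markers of other blood lineages, PF4 had no count in any library, and the sum was 67.6 to 73.2 CPM in shPHF19 cells and 51.0 to 63.3 CPM in control cells. The sum of 6 stromal and epithelial markers was 83.8 to 99.96 CPM in shPHF19 cells and 58.9 to 73.2 CPM in control cells, most of it EPCAM. Within the sums of other blood lineages and of stroma and epithelium, CD3E (-0.91) and VIM (-1.74) were called lower and CD3D (0.55) and EPCAM (0.58) higher. Whether these shifts bear on the host genes was not tested. In bulk samples such as these, fewer cells of a kind and less RNA per cell cannot be told apart.

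All 10 host genes differed between the groups at an adjusted p under 0.05, in both directions. SNHG1, SNHG5, SNHG6, SNHG7, SNHG8, SNHG12 and GAS5 fell and SNHG3, SNHG15 and SNHG16 rose in shPHF19 cells (edgeR quasi-likelihood test, Benjamini-Hochberg adjusted over all genes tested). Of all 13014 genes tested, 60.2% were called in either direction, 29.4% as higher and 30.9% as lower, so a call alone sets a gene little apart in this comparison. SNHG1, SNHG8 and SNHG12 fell at least 2-fold. Of all tested genes, 10.9% fell and 5.72% rose at least 2-fold at an adjusted p under 0.05. No host gene rose as much, and the largest rise, that of SNHG16, was 1.58-fold. The libraries of the groups did not overlap for 9 of the 10 host genes, as for 63.5% of all tested genes, and SNHG6 was the exception. The median log2 fold change was -0.55 over the 10 host genes and -0.03 over all tested genes. With libraries scaled by their totals alone, those medians were -0.76 and -0.24, 2 host genes were called higher and 7 lower, and over all genes 2590 were called higher and 5624 lower, in place of 3820 and 4015. Together the 10 genes took 0.113% ± 0.000857 of all counts in shPHF19 libraries and 0.214% ± 0.0135 in control libraries (SD, n = 3 each).

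**Figure D1:**
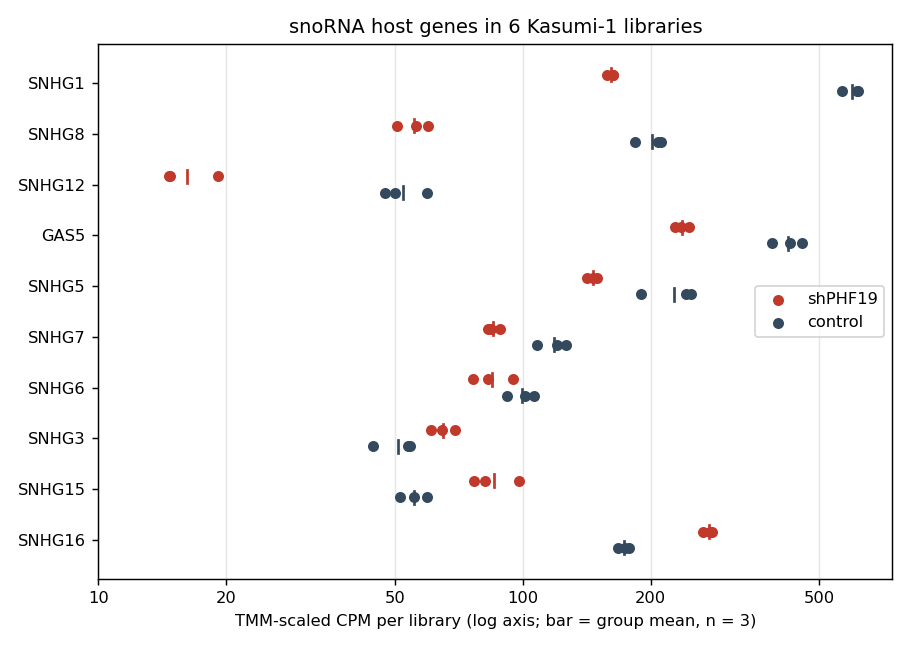
Level of each of the 10 host genes in every library, in TMM-scaled CPM on a log axis, with shPHF19 libraries above control libraries and a bar at each group mean (n = 3). SNHG1, SNHG8 and SNHG12 lie farthest apart, with shPHF19 libraries lower, SNHG3, SNHG15 and SNHG16 are higher in shPHF19 libraries, and only the libraries of SNHG6 overlap.

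The 3 largest falls were those of SNHG1 on chromosome 11 (chr11:62851988-62855914, minus strand), SNHG8 on chromosome 4 (chr4:118278709-118279823, plus strand) and SNHG12 on chromosome 1 (chr1:28578538-28583132, minus strand), with positions from GENCODE 29 on GRCh38. SNHG3 (chr1:28505980-28510892, plus strand) and SNHG16 (chr17:76557766-76565348, plus strand), which rose, are set beside them. The stretches around these 5 starts are shown because host genes of this class are known for a pyrimidine tract there. Each line is 100 bases of RefSeq sequence (GRCh38.p14), 60 before and 40 from the RefSeq start on, read 5′ to 3′ on the gene's strand. Capitals mark the longest run of C or T that begins with C between 10 bases before and 40 after the start.
SNHG1: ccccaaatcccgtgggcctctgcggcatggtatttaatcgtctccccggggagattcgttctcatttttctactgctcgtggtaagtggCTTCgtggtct
SNHG8: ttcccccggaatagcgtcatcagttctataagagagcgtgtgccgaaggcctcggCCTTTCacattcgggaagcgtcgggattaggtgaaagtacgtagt
SNHG12: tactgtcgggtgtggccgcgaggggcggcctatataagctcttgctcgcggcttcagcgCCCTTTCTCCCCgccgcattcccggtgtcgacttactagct
SNHG3: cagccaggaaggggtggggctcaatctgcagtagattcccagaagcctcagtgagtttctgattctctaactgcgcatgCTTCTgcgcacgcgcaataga
SNHG16: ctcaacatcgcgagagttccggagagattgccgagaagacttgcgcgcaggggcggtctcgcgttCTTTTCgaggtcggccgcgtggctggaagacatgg
The run was 12 bases long in SNHG12, 6 in SNHG8 and SNHG16, 5 in SNHG3 and 4 in SNHG1. Among the 8 host genes with a RefSeq promoter, a run of at least 8 was found in SNHG12 and GAS5, and 13.9% of the 9628 tested genes with a promoter hold one. The letters TATAA, searched on the sense strand between 40 and 20 bases before the start, occur in SNHG5, SNHG7, SNHG8 and SNHG12, in 4 of 8 host genes against 2.69% of tested genes. CACGTG on either strand, within the 300-base window, was found in SNHG7 (10.4% of tested genes), and TGATGNAA in none of the 8 (1.61%). These matches describe the letters of the windows, and no test was made on them. The RefSeq start lies upstream of the GENCODE start by 163 bases in GAS5, 37 in SNHG3 and 2 in SNHG16, and inside the GENCODE gene by 1259 bases in SNHG12, 53 in SNHG8, 29 in SNHG1 and 15 in SNHG5, so what the windows hold depends on which start is used.

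SNHG1, the host of SNORD22 and SNORD25 to SNORD31, had 163, 158 and 163 CPM in shPHF19 cells, against 616, 613 and 565 CPM in control cells. SNHG8, a short gene that holds the H/ACA snoRNA SNORA24, had 50.6, 56.1 and 59.8 CPM in shPHF19 cells, against 212, 209 and 184 CPM in control cells. SNHG12, the host of 3 H/ACA snoRNAs and of SNORD99, had 19.1, 14.8 and 14.7 CPM in shPHF19 cells, against 50.1, 59.3 and 47.3 CPM in control cells. In each of these genes every shPHF19 library lay well below every control library, and the gap was larger than the range within either group. SNHG1 averaged 162 ± 2.86 CPM in shPHF19 cells and 598 ± 28.7 CPM in control cells, 3.70-fold lower (log2 fold change -1.89, SE 0.0828, adjusted p = 1.88e-24). SNHG8 averaged 55.5 ± 4.63 CPM in shPHF19 cells and 202 ± 15.2 CPM in control cells, 3.63-fold lower (-1.86, SE 0.0917, adjusted p = 1.63e-22). SNHG12 averaged 16.2 ± 2.52 CPM in shPHF19 cells and 52.2 ± 6.32 CPM in control cells, 3.24-fold lower (-1.69, SE 0.125, adjusted p = 2.73e-16). The 3 log2 fold changes are close to each other, but the genes were set together as the largest falls of the 10. Their closeness therefore carries no weight of its own. The 3 genes differ widely in level and sit on 3 chromosomes. SNHG1 made up 13.3% of the counts of the 10 host genes in shPHF19 libraries and 29.9% in control libraries.

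The other 4 falls were smaller. GAS5 (chr1:173863900-173868882, minus strand), found as an RNA that builds up in growth-arrested mouse fibroblasts and a textbook substrate of nonsense-mediated decay, had 246, 236 and 228 CPM in shPHF19 cells, against 426, 455 and 387 CPM in control cells. SNHG5 (chr6:85660950-85678748, minus strand), the host of SNORD50A and SNORD50B, had 142, 150 and 147 CPM in shPHF19 cells, against 242, 250 and 190 CPM in control cells. In both genes the groups stand clear of each other, and the shPHF19 libraries are closer together than the control libraries. GAS5 was 1.79-fold lower (log2 fold change -0.84, SE 0.0827, adjusted p = 3.36e-12) and SNHG5 1.56-fold lower (-0.64, SE 0.0892, adjusted p = 3.23e-08). SNHG7 (chr9:136721366-136728184, minus strand), the host of the H/ACA snoRNAs SNORA17A and SNORA17B, had 88.5, 82.8 and 84.3 CPM in shPHF19 cells, against 120, 126 and 108 CPM in control cells. It was 1.39-fold lower (-0.47, SE 0.0893, adjusted p = 1.19e-05), with no overlap of libraries. SNHG6 on chromosome 8, the host of SNORD87, had 76.5, 94.9 and 82.7 CPM in shPHF19 cells, against 101, 106 and 91.6 CPM in control cells. Its second shPHF19 library lies above the lowest control library, and the difference was the smallest of the 10 (1.18-fold lower, -0.24, SE 0.0937, adjusted p = 0.0276). The call of SNHG6 was lost without shPHF19 replicate 1 (-0.16, adjusted p = 0.142), without shPHF19 replicate 3 (-0.21, 0.0620) and without control replicate 2 (-0.17, 0.156), and with DESeq2 (-0.21, 0.0685). With the trend of the counts on GC content removed it was -0.12 (adjusted p = 0.151).

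SNHG16, SNHG15 and SNHG3 rose. SNHG16, the host of SNORD1A, SNORD1B and SNORD1C, had 279, 267 and 276 CPM in shPHF19 cells, against 174, 178 and 168 CPM in control cells. SNHG15 (chr7:44983023-44986961, minus strand), the host of SNORA9 and known as a short-lived RNA, had 98.0, 81.5 and 76.8 CPM in shPHF19 cells, against 55.3, 59.4 and 51.4 CPM in control cells. In SNHG16 the libraries of each group nearly coincide, whereas in SNHG15 the first shPHF19 library is well above the other two. SNHG16 was 1.58-fold higher (log2 fold change 0.66, SE 0.0811, adjusted p = 1.24e-09) and SNHG15 1.54-fold higher (0.62, SE 0.0999, adjusted p = 5.66e-07). SNHG3, the host of SNORA73A and SNORA73B, which act in ribosomal RNA processing, had 69.2, 60.6 and 64.4 CPM in shPHF19 cells, against 54.3, 53.6 and 44.4 CPM in control cells. It was 1.27-fold higher (0.35, SE 0.102, adjusted p = 0.00287), a rise that was 0.14 (adjusted p = 0.214) with library totals only and 0.27 (adjusted p = 0.0519) without control replicate 3. SNHG16 had the most counts of the 10 in shPHF19 libraries, with 22.6% of their sum there and 8.65% in control libraries.

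Per length the order of the host genes changed between the groups. Levels per kilobase (RPKM, TMM-scaled CPM divided by the length of all GENCODE 29 exons joined, which counts retained-intron transcripts and so can understate the spliced RNA) are the scale of this paragraph. In shPHF19 cells SNHG6 (67.9 ± 7.50), GAS5 (65.2 ± 2.51) and SNHG8 (60.1 ± 5.02) led, and neighbours in that order overlap. SNHG5 (52.1 ± 1.38) and SNHG16 (51.1 ± 1.23) followed and overlap each other, and below them stood SNHG1 (43.0 ± 0.761), SNHG15 (23.4 ± 3.05), SNHG7 (19.6 ± 0.678), SNHG3 (15.8 ± 1.05) and SNHG12 (3.79 ± 0.590), each clear of its neighbours. In control cells SNHG8 (218 ± 16.5) led, followed by SNHG1 (159 ± 7.64) and GAS5 (116 ± 9.43), without overlap. SNHG5 (80.9 ± 11.5) and SNHG6 (80.0 ± 5.96) overlap in control cells, as do SNHG3 (12.4 ± 1.36) and SNHG12 (12.2 ± 1.48) at the low end, with SNHG16 (32.3 ± 0.953), SNHG7 (27.2 ± 2.16) and SNHG15 (15.2 ± 1.10) between them. The level of the highest host gene was 67.9 RPKM in shPHF19 cells and 218 RPKM in control cells, while SNHG12 was last in both.

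**Figure D2:**
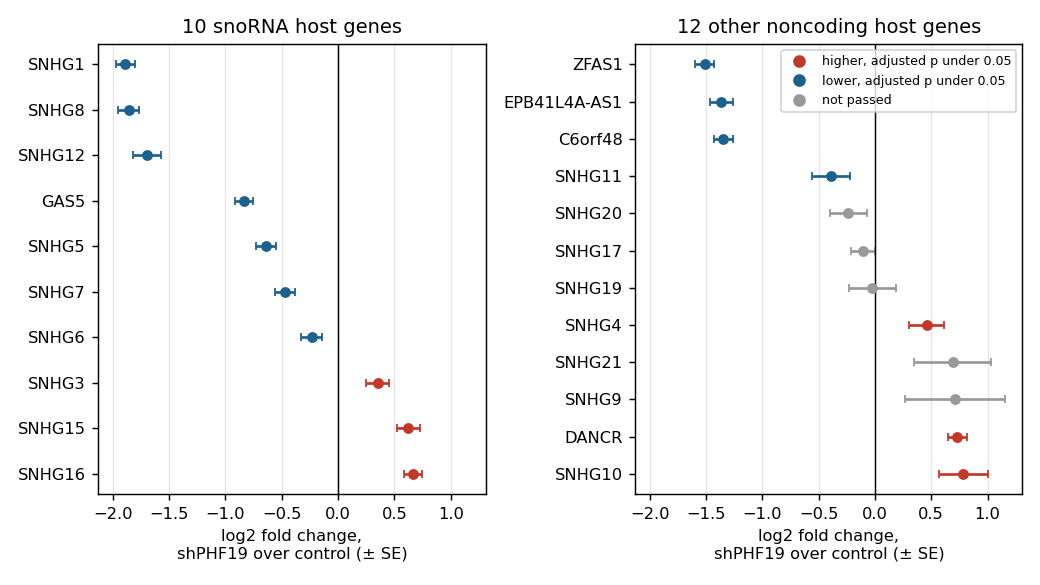
Log2 fold change, shPHF19 over control, with its standard error (edgeR, n = 3 each), for the 10 host genes on the left and 12 other noncoding snoRNA host genes on the right, coloured by call. Values run from -1.89 for SNHG1 to 0.66 for SNHG16 on the left and from -1.51 for ZFAS1 to 0.78 for SNHG10 on the right.

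Some host genes share sequence or a start region with another gene, and without a stated strand setting reads of overlapping genes cannot be told apart. The start of SNHG1 lies 188 bases from that of SLC3A2 on the opposite strand, which encodes the heavy chain of amino acid transporters. SLC3A2 had 242, 214 and 210 CPM in shPHF19 cells, against 459, 535 and 472 CPM in control cells, and it fell with SNHG1 (log2 fold change -1.14, SE 0.0848, adjusted p = 3.95e-16). SNHG3 shares 242 exonic bases on the same strand with RCC1, a nucleotide exchange factor for Ran, so their counts depend on how shared reads were treated. All of SNHG3, with SNORA73A and SNORA73B, lies inside the span of RCC1 (chr1:28505943-28539300), so these snoRNAs cannot be assigned to SNHG3 alone. The RefSeq start used for SNHG3 is also the GENCODE start of RCC1 (chr1:28505943), so the window shown above for SNHG3 is that of both genes. RCC1 averaged 257 ± 16.6 CPM in shPHF19 cells and 110 ± 4.40 CPM in control cells (1.22, adjusted p = 3.08e-17), so both genes of the shared region rose, and the part of RCC1 reads in the value of SNHG3 was not tested. FAM69B overlaps SNHG7 by 1094 exonic bases on the opposite strand and had 11.4 ± 0.377 CPM in shPHF19 cells and 10.9 ± 0.773 CPM in control cells (0.06, adjusted p = 0.764). TRNAU1AP, which overlaps SNHG12 by 8 bases, had a log2 fold change of 0.16 (adjusted p = 0.351), and GAS5-AS1, which overlaps GAS5 by 42 bases, had 0.51 (adjusted p = 0.431). ZBTB37, whose start is 800 bases from that of GAS5, had -0.55 (adjusted p = 0.245). MCMDC2 overlaps SNHG6 by 365 bases and was too low to be tested, at 0.394 CPM in shPHF19 cells and 0.663 CPM in control cells.

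RefSeq and GENCODE place 36 snoRNAs inside the 10 host genes, of which 33 have a row of their own and 15 had enough counts to be tested. None of the 15 was called lower, 3 were called higher and 12 did not pass, where 29.4% of all tested genes were called higher and 30.9% lower. By edgeR no snoRNA row of the 15 was lower at an unadjusted p under 0.05 either, and DESeq2 and limma-voom also called 0 lower. The 3 called higher were SNORD80 in GAS5, SNORA61 in SNHG12 and SNORA9 in SNHG15, so 2 of them sit in a host RNA that fell. The sequences of SNORA61, SNORA9 and SNORD25 are shown, the first 2 because they were called higher and SNORD25 as a box C/D example from SNHG1 whose row was not called while its host fell. They are transcript sequences of GENCODE 29, read 5′ to 3′. Capitals mark the ACA box near the end of SNORA61 and SNORA9, and box C and box D of SNORD25.
SNORA61: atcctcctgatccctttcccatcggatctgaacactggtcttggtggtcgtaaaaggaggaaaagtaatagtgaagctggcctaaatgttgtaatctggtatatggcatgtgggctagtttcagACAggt
SNORA9: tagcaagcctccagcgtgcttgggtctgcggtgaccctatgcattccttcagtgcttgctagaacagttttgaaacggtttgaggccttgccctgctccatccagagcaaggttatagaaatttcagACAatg
SNORD25: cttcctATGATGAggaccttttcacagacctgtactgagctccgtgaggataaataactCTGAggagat
SNORA61 lies at chr1:28579764-28579893, SNORA9 at chr7:44985378-44985510 and SNORD25 at chr11:62855564-62855632 (GRCh38, all on the minus strand).

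SNORD80 had 120, 99 and 98 counts in shPHF19 libraries, against 61, 54 and 43 counts in control libraries. That is 7.36 ± 1.35 CPM in shPHF19 cells and 3.24 ± 0.484 CPM in control cells (log2 fold change 1.18, SE 0.230, adjusted p = 2.04e-05), the opposite direction from its host GAS5. SNORA61 had 47, 44 and 51 counts in shPHF19 libraries, against 22, 23 and 25 in control libraries (1.18, SE 0.339, adjusted p = 0.00244). Every shPHF19 library of both snoRNAs lies above every control library, while every shPHF19 library of both host RNAs lies below. SNORA9 had 46, 46 and 53 counts in shPHF19 libraries, against 20, 19 and 34 in control libraries (1.14, SE 0.343, adjusted p = 0.00367), the same direction as SNHG15. With the trend of the counts on gene length removed, SNORA61 (0.71, adjusted p = 0.0646) and SNORA9 (0.67, adjusted p = 0.0910) were no longer called, 1 row in the host genes was called higher and 1 lower. Without control replicate 3, 5 rows were called higher. SNORA44 in SNHG12 (-0.43), SNORD87 in SNHG6 (0.73), and SNORD47 (0.72), SNORD78 (0.68), SNORD44 (0.51) and SNORD76 (0.10) in GAS5 did not pass. SNORA73B in SNHG3 had 29, 30 and 35 counts in shPHF19 libraries, against 18, 28 and 17 in control libraries (0.74, SE 0.390, adjusted p = 0.0957). SnoRNAs are short, here 60 to 207 bases with a median of 77, and counts of this size come with wide errors.

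No snoRNA in SNHG1 was called lower, although the host RNA fell most of the 10. SNORD31 had 86, 89 and 79 counts in shPHF19 libraries, against 82, 91 and 93 in control libraries (log2 fold change 0.10, SE 0.212, adjusted p = 0.711). SNORD25 had 56, 79 and 69 counts in shPHF19 libraries, against 70, 92 and 66 in control libraries (0.00, SE 0.233, adjusted p = 0.993). The libraries of the groups overlap for both, whereas those of SNHG1 stand far apart. SNORD22 (0.45), SNORD28 (0.41) and SNORD26 (1.03) did not pass either, and with the length trend removed SNORD25 was called lower (-0.57, adjusted p = 0.0337). Summed over its 8 rows, the snoRNA counts in SNHG1 were 274, 267 and 217 in shPHF19 libraries, against 234, 257 and 221 in control libraries. Per 100 host counts these are 12.4, 10.9 and 9.17 in shPHF19 libraries, against 2.33, 2.47 and 2.54 in control libraries, a 4.44-fold higher ratio. The ratio does not depend on how libraries are scaled, and it was chosen after the values were seen. Its denominator is the host RNA, whose fall was already known and raises the ratio by itself. As CPM the 8 rows summed to 17.5 ± 2.71 in shPHF19 cells and 14.6 ± 0.455 in control cells, with overlap of libraries.

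The same ratio was higher in shPHF19 libraries for SNHG12 and GAS5, and a ratio for snoRNA rows elsewhere in the genome was higher too. The counts of both hosts and the summed counts of the 10 host genes were already known to fall, which raises such ratios by itself. Set against the summed counts of the 10 host genes, which do not host them, the rows elsewhere gave 11.7 ± 0.562 counts per 100 in shPHF19 libraries and 4.40 ± 0.296 in control libraries (2.66-fold). As CPM these rows rose less, with a log2 ratio of group means of 0.69. The rows inside the 10 genes, set against the same sum, gave 3.74 ± 0.397 in shPHF19 libraries and 1.498 ± 0.0878 in control libraries (2.49-fold). As CPM their log2 ratio of group means was 0.60. In SNHG12 the ratio was 21.4, 34.2 and 33.8 snoRNA counts per 100 host counts in shPHF19 libraries, against 5.41, 4.67 and 7.13 in control libraries (5.20-fold). In GAS5 it was 7.57, 5.51 and 5.23 in shPHF19 libraries, against 1.96, 1.76 and 1.78 in control libraries (3.33-fold). In neither gene did the groups overlap. In SNHG3 the host RNA rose, and its counted snoRNA, SNORA73B, also lies inside RCC1. The ratio to SNHG3 was 3.35 ± 0.341 in shPHF19 libraries and 2.53 ± 0.523 in control libraries, 1.32-fold higher. For SNHG12, GAS5, SNHG3 and both pooled ratios, as for SNHG1, the 2-sided exact permutation p was 0.1. That is the smallest that 3 libraries against 3 can give. These p-values refer to the ratio and not to the snoRNA counts alone. In SNHG15 the ratio was 3.96 ± 0.686 in shPHF19 libraries and 2.80 ± 1.30 in control libraries, with overlap (exact permutation p = 0.3). The rows of both snoRNAs in SNHG7 had no count in any library, which allows up to 3 counts, or 0.177 to 0.223 CPM. The counts of the snoRNAs in SNHG5, SNHG6, SNHG8 and SNHG16 were too few to give a ratio that holds up. SNORD50B in SNHG5 had 2, 35 and 5 counts in shPHF19 libraries, against 4, 5 and 3 in control libraries, so its sum rests on a single library.

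**Figure D3:**
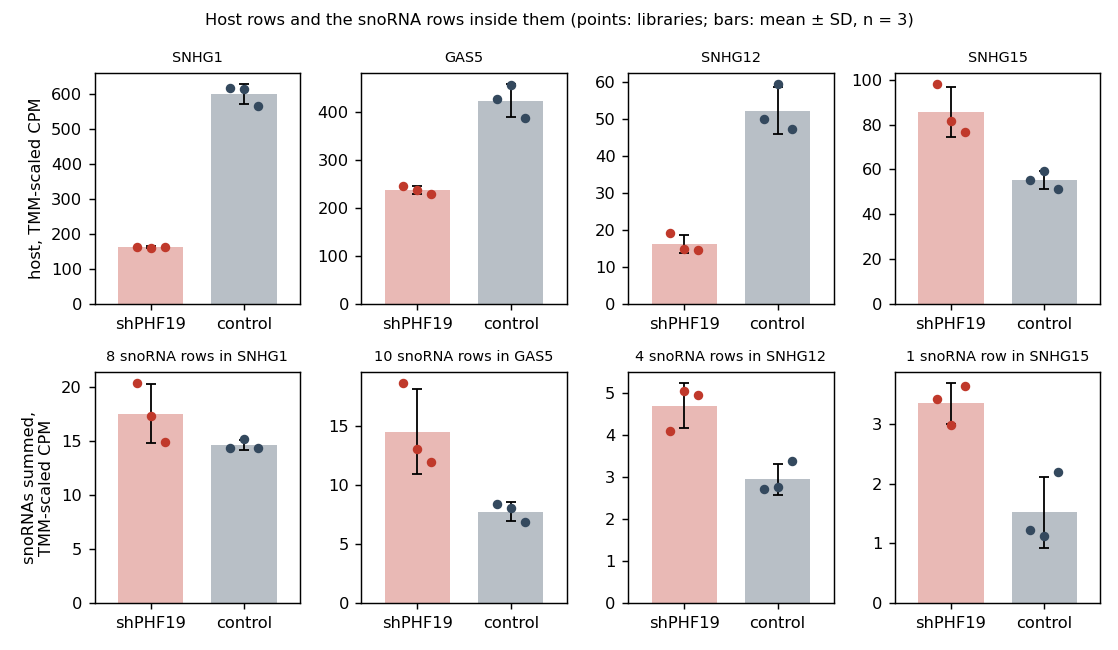
TMM-scaled CPM of 4 host RNAs (top) and of the snoRNA rows inside each of them, summed (bottom), with shPHF19 left of control, points for libraries and bars for the mean ± SD (n = 3). The host RNAs of SNHG1, GAS5 and SNHG12 are lower in shPHF19 libraries, while their snoRNA sums are 17.5 and 14.6 CPM with overlap in SNHG1 (shPHF19 and control), 14.5 and 7.75 in GAS5, and 4.70 and 2.95 in SNHG12.

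No snoRNA row outside the host genes was called lower either. Over all 395 rows named as snoRNAs or small Cajal body RNAs, 68 were tested, 21 were called higher and 0 lower. The share called higher is near the 29.4% of all tested genes, of which 30.9% were called lower. At an unadjusted p under 0.05 in the edgeR fit 0 snoRNA rows were lower, and DESeq2 and limma-voom called 0 lower. In the host genes 3 of 15 tested rows were called higher, and elsewhere 18 of 53. The rows in the 10 host genes summed to 45.3 ± 5.53 CPM in shPHF19 cells and 29.9 ± 0.596 CPM in control cells, and those elsewhere to 142 ± 7.78 CPM in shPHF19 cells and 88.0 ± 8.36 CPM in control cells. With the length trend removed 8 rows of all snoRNAs were called higher and 4 lower, with library totals only 19 and 2, and without control replicate 2 a single row was called lower. Reads counted to a snoRNA row may come from the mature snoRNA or from an unspliced host intron, and many snoRNAs have near-identical copies. In GENCODE 29, 18 of the 21 snoRNAs it lists inside these genes overlap an exon of some host transcript, so the split of reads between host and snoRNA rows depends on the annotation behind the counts, not given in the sources used here.

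**Figure D4:**
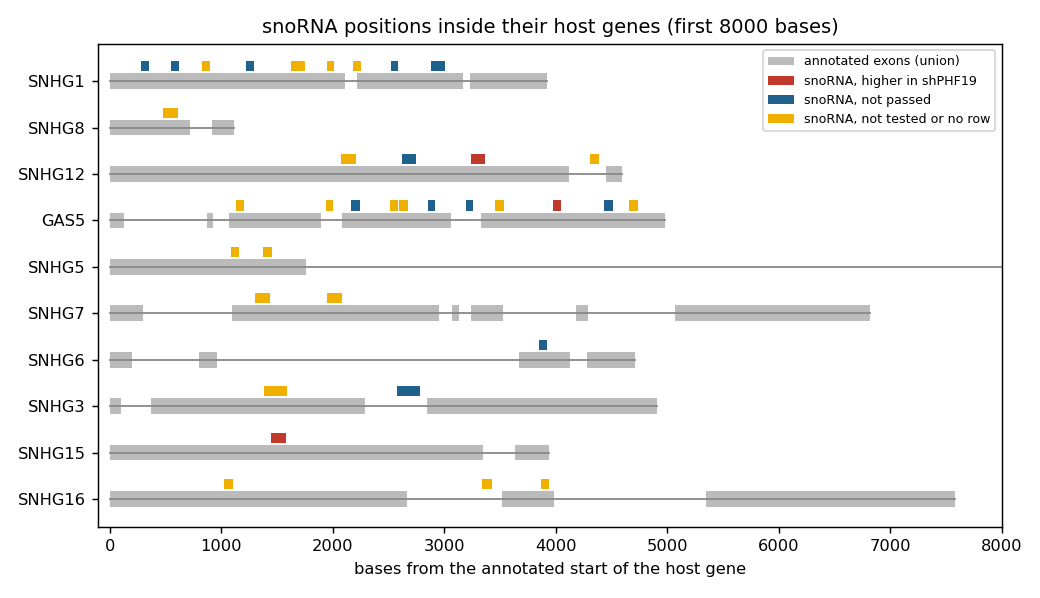
Positions of the snoRNAs (coloured boxes) and of the joined GENCODE 29 exons (grey) in each host gene, in bases from the annotated start and in the direction of transcription; SNHG5 runs on beyond the right edge. The snoRNAs called higher, SNORA61 in SNHG12, SNORD80 in GAS5 and SNORA9 in SNHG15, are red, those tested and not called are blue, and those not tested or without a row are yellow.

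Other noncoding snoRNA hosts were also called in both directions. Of 19 listed symbols 15 have a row and 12 were tested: 3 were called higher, 4 lower and 5 did not pass, with a median log2 fold change of -0.06. The share called, 58.3%, is near the 60.2% of all tested genes. ZFAS1, the host of several SNORD12 copies, averaged 146 ± 7.14 CPM in shPHF19 cells and 416 ± 33.3 CPM in control cells (-1.51, SE 0.0849, adjusted p = 2.00e-20). C6orf48, an older symbol of SNHG32, averaged 226 ± 5.87 CPM in shPHF19 cells and 575 ± 33.1 CPM in control cells (-1.35, adjusted p = 3.34e-19), and EPB41L4A-AS1 32.4 ± 3.09 CPM in shPHF19 cells and 83.3 ± 5.20 CPM in control cells (-1.36, adjusted p = 7.20e-16). These falls approach those of SNHG1, SNHG8 and SNHG12 in size. DANCR, which hosts SNORA26 and is known for holding back differentiation of progenitor cells, averaged 147 ± 10.5 CPM in shPHF19 cells and 88.6 ± 3.39 CPM in control cells (0.73, adjusted p = 6.37e-10). SNHG10 (0.78, adjusted p = 0.00163) and SNHG4 (0.46, adjusted p = 0.00834) were also called higher and SNHG11 lower (-0.39, adjusted p = 0.0382), the last lost in 7 alternatives, among them without shPHF19 replicate 2 (-0.25, adjusted p = 0.278), and SNHG4 lost with library totals only (0.25, adjusted p = 0.147) and without control replicate 1 (0.34, adjusted p = 0.0718). SNHG9 (0.71), SNHG21 (0.69), SNHG17 (-0.11), SNHG19 (-0.02) and SNHG20 (-0.24) did not pass.

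Protein-coding snoRNA hosts were called higher more often than lower with TMM scaling, where 29.4% of all tested genes were called higher and 30.9% lower. No test between these lists and the noncoding hosts was made. Of 26 tested ribosomal protein genes that host snoRNAs, 7 were called higher, 2 lower and 17 did not pass, with a median log2 fold change of 0.13. RPL7A (0.50), RPS2 (0.40) and RPL17 (0.74) were among those called higher, and RPS12 (-0.28) and RPS20 (-0.24) lower. These counts follow the scaling and single libraries: 3 were called higher and 8 lower with library totals only, 14 and 1 without control replicate 2, and 4 higher without control replicate 3. RPL17 was not called with library totals only (0.54, adjusted p = 0.0511) or without control replicate 1 (0.54, adjusted p = 0.0589), nor RPS20 without control replicate 2 (-0.18, adjusted p = 0.0659). Ribosomal protein genes have many processed copies, which adds to the uncertainty of their counts. Of 30 other protein-coding hosts, 19 were called higher, 4 lower and 7 did not pass, with a median of 0.40. NOP56, NOP58 and DKC1 are on this list and also among the snoRNA core proteins below, so those lists are not separate. HSPA8, the constitutive HSP70 chaperone and host of SNORD14 copies, had the largest rise (2.06, adjusted p = 2.73e-26), followed by RCC1, by the splicing genes SF3B3 (1.09) and SNRPB (1.04), while TAF1D, a subunit of the RNA polymerase I factor SL1, fell (-1.22, adjusted p = 4.84e-16), as did HSPA9 (-0.40), CCNB1IP1 (-0.29) and TPT1 (-0.26), the last not without control replicate 1 (-0.21, adjusted p = 0.0550). Over 195 tested protein-coding genes with an annotated snoRNA inside their span on the same strand, in an intron or overlapping an exon, 81 were called higher and 43 lower. C6orf48, given above with the noncoding hosts, is annotated as protein-coding in GENCODE 29 and is 1 of these 43.

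Genes of the snoRNA particles were mostly higher, where 29.4% of all tested genes were called higher and 30.9% lower. Of 8 tested core proteins 7 were called higher and 0 lower, with 0 lower at an unadjusted p under 0.05 in edgeR and 0 lower by DESeq2 and limma-voom, and the median log2 fold change was 0.72. NHP2, a core protein of H/ACA particles, averaged 150 ± 16.6 CPM in shPHF19 cells and 48.5 ± 4.07 CPM in control cells (1.63, SE 0.0960, adjusted p = 1.23e-19). FBL, the methyltransferase of box C/D particles, averaged 465 ± 44.9 CPM in shPHF19 cells and 246 ± 10.3 CPM in control cells (0.92, adjusted p = 2.82e-13), and its partners NOP56 (0.89) and NHP2L1 (0.70) were also called higher. NOP58 (0.05), also on the list of core proteins, did not pass. The RNAs of the 7 core proteins called higher rose in the libraries where 7 of the 10 noncoding hosts fell. Of 12 assembly factors 8 were called higher and 1 lower, with a median of 0.62: the ATPases RUVBL2 (1.72) and RUVBL1 (1.13) and the nucleolar chaperones TCOF1 (0.88) and NOLC1 (0.86) rose, and RPAP3 (-0.45) fell, though not with the GC trend removed (-0.22, adjusted p = 0.0567). Of 17 factors of nonsense-mediated decay 4 were called higher, 4 lower and 9 did not pass (median 0.13). The share of them called, 47.1%, is below the 60.2% of all tested genes. The exon junction genes RNPS1 (1.26), EIF4A3 (1.01), MAGOH (0.66) and RBM8A (0.33) rose, while CASC3 (-0.16) and MAGOHB (0.27) did not pass. The kinase gene SMG1 (-0.62), PNRC2 (-0.63), UPF2 (-0.50) and UPF3B (-0.43) fell. With library totals only 8 of the decay factors were called lower, and RBM8A was not called (0.13, adjusted p = 0.190).

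**Figure D5:**
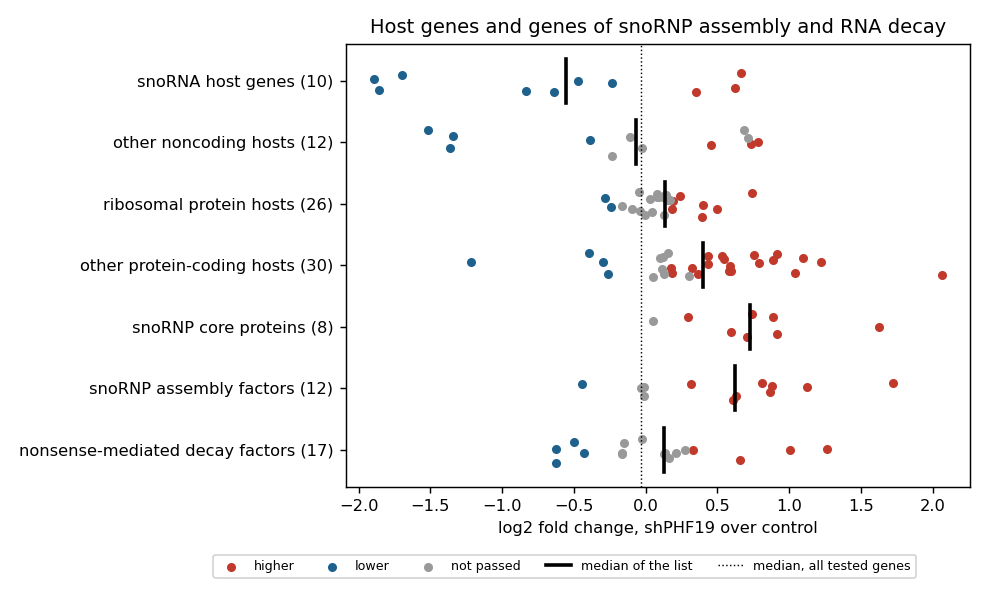
Log2 fold change, shPHF19 over control, of every tested gene in 7 lists (number tested in brackets), coloured by call, with a bar at the list's median and a dotted line at the median of all tested genes (-0.03). The median is -0.55 for the 10 host genes, -0.06 for other noncoding hosts, 0.13 for ribosomal protein hosts, 0.40 for other protein-coding hosts, 0.72 for core proteins, 0.62 for assembly factors and 0.13 for decay factors. NOP56, NOP58 and DKC1 are drawn both under other protein-coding hosts and under core proteins.

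In the authors' deposited table of their own comparison, 9 of the 10 host genes are listed among 5740 genes. The counts have 26410 rows, of which 13014 were tested here, so many other genes are listed too. SNHG6 is not listed. The largest adjusted p in the authors' deposited table is 0.00993, so only genes with a low adjusted p are listed. The authors' deposited table gives log2 fold changes of -1.86 for SNHG1, -1.83 for SNHG8, -1.65 for SNHG12, -0.81 for GAS5, -0.60 for SNHG5 and -0.44 for SNHG7. In the same authors' deposited table SNHG3 has 0.36, SNHG15 0.63 and SNHG16 0.68, so all 9 have the direction found from the counts. The authors' comparison is of the same series and groups, so the shared direction is not independent evidence.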

How the data were processed

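RNA-seq counts of 6 Kasumi-1 libraries, 3 shPHF19 and 3 control, were used, grouped by sample title. Per the labels' protocols, total RNA was extracted with TRIzol and libraries were made with the KAPA Hyper Prep kit. The tools HISAT2 (2.1.0) and HTSeq (0.11.2) and the build hg38 are listed per the submitters' processing notes. Gene annotation and strand setting: not given in the sources used here. Whole-number counts per gene symbol, not normalized, were deposited by the authors, with 6991 of 26410 rows at 0. A second deposited table, from the authors' own comparison, holds a mean normalized signal (baseMean), log2 fold changes and p-values, and the sources name no tool for it. No column was left unmatched to a sample.

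The test was edgeR's (4.0.16, R 4.3.3): filterByExpr, TMM scaling, group as the only term, quasi-likelihood F test, and adjustment over all 13014 genes tested (threshold 0.05). The common biological coefficient of variation was 0.0915. The standard error is the log2 fold change divided by the square root of F. Errors of CPM are SDs over 3 libraries. The fit was tested on simulated data. Library totals give the depth, and floors cover counting error only. Every pair of replicates was compared by a chi-square statistic per degree of freedom, which was 4.73 to 12.1, beyond sampling noise, and all libraries were kept. GENCODE 29 matched 94.1% of tested genes by symbol, and RefSeq gave 8 of 10 promoters. The members, gene lists, tests and alternatives were chosen with earlier results of these data known. Named are the 10 host genes, PHF19, tested other noncoding hosts, up to 4 called genes per list and direction, overlapping or start-sharing neighbours and snoRNA rows in the host genes; a few genes under this rule are not reported here. Alternatives varied scaling, filter, tool (DESeq2 1.42.0, limma 3.58.1 voom), length and GC trends, the replicate block and each library in turn.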

Additional observations from a re-analysis of the deposited data

How the results depend on the processing

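Of the 10 host genes, 8 kept their direction and call in all 18 alternatives, among them SNHG1 (log2 fold change -2.09 to -1.83), SNHG8 (-2.06 to -1.79), SNHG12 (-1.90 to -1.58), GAS5 (-1.04 to -0.76) and SNHG16 (0.46 to 0.70). The exceptions were SNHG3, at 0.14 with library totals only and 0.27 to 0.40 with 1 library left out, and SNHG6, at -0.21 with no filter, -0.21 with DESeq2, -0.24 with the replicate block, -0.12 with the GC trend removed, -0.12 with the block and the GC trend, and -0.32 to -0.16 with 1 library left out. The cause was not tested. Upper-quartile factors gave 3190 genes higher and 4778 lower, with a median of -0.14 over all genes and -0.66 over the host genes. Same-numbered libraries did not deviate together (correlations -0.164, -0.00656 and -0.0537), and differently numbered ones gave -0.1275 to 0.1732. These values show no pairing by number, but with 3 libraries per group they cannot exclude a weak one. The replicate block gave 3555 genes higher and 3752 lower. Under the alternatives, 57 other named genes gave 1025 values. Of these, 977 kept direction and call, 20 lost a call, 4 gained one with the same sign and 24 changed sign. None of the 24 had been called in the main fit. After its change of sign SNORD25 was called lower with the length trend removed (edgeR adjusted p = 0.0337) and with the block too (0.0443). SNORD25 was -0.20 (library totals only), -0.10 (upper quartile), -0.0064 (1 CPM filter), -0.57 (length trend, and -0.57 with the block too) and -0.063 to 0.14 with 1 library left out, of which 4 of 6 were below 0 (-0.063, -0.0018, -0.054 and -0.053). FAM69B was -0.14 (totals), -0.041 (upper quartile), -0.00045 (length), -0.046 (GC) and -0.041 (block and GC). SNHG19 was 0.0023 (DESeq2), and 0.21 and 0.075 without shPHF19 or control replicate 2. TRNAU1AP was -0.048 and SNORD31 -0.11 with totals, SNORD31 -0.0055 with upper quartile, and with the length trend alone or with the block SNORD22 was -0.029 and -0.037 and SNORD28 -0.16 and -0.17. SnoRNA rows called higher numbered 13 with a 1 CPM filter and 7 with the block and length trend, and those in host genes 5 with no filter. Ribosomal protein hosts called higher were 12 with the GC trend removed and 4, against 4 lower, with upper-quartile factors, which called 7 decay factors lower. Assembly factors called lower were 0 with the GC trend removed. Of the 33 snoRNA rows in the host genes, 15 held enough counts to be tested; whether depth, fragment length or annotation set this was not tested.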
